A study of Mus musculus with 6 samples.

Results

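The deposited gene table of the mouse anterior cingulate cortex (ACC) contains 688 rows that carry no gene identifier and are called newGene followed by a number. They were chosen by that name alone and make up 688 of the 14250 rows, beside 13562 rows with an Ensembl identifier, here called annotated rows. Each name starts with Mus_musculus_, which is left out below. The file gives no position, sequence, length or strand for them, so they are described by name, count and FPKM only.

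The libraries came from C57BL/6 mice that carried no other stated allele. A group of 3 mice received LPS (lipopolysaccharide, a bacterial endotoxin that triggers inflammation) at 50 µg/kg into the peritoneum on postnatal day 14, and 3 mice received pyrogen-free saline on the same day. All 6 were killed on postnatal day 45 under isoflurane and pentobarbital and perfused with cold buffer. Polyadenylated RNA of 1 mouse entered each library, and the ACC was cut out by hand, so the pieces can hold some neighbouring tissue. The series as a whole asks how inflammation early in life alters the adolescent brain.

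As background, sequencing reads that fall outside known gene models can be assembled into additional loci. Such loci can be long noncoding RNAs, unlisted ends or exons of known genes, transcripts of transposable elements, pseudogene copies or fragments of unspliced RNA. Which of these a given newGene row is cannot be told from the table, and how the authors assembled them is not given in the labels. The annotated rows are almost all of another kind. Of the 13562 annotated rows, 13549 are protein-coding in GENCODE M21, an annotation of build GRCm38, so most noncoding RNAs are absent among them. Of 8 nuclear-retained or neuronal long noncoding RNAs looked for, among them Malat1, Neat1 and Meg3, only Snhg11 has a row of its own.

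Library totals ran from 36168687 to 41270737 counts. Markers of the tissue were present: all 5 genes looked for in each of interneurons, astrocytes, oligodendrocytes, microglia and endothelium had rows. The summed FPKM (fragments per kilobase of transcript, scaled to sequencing depth) of the interneuron genes Gad1, Gad2, Slc32a1, Sst and Pvalb was 389 to 441 in saline and 403 to 473 in LPS libraries. The 6 markers of the neighbouring striatum summed to 47.9 to 48.7 FPKM in saline and 44.2 to 49.8 FPKM in LPS libraries, and the 5 of the thalamus to 26.7 to 32.2 and 27.0 to 32.1 FPKM. The 5 meningeal markers summed to 10.5 to 22.8 and 19.3 to 28.1 FPKM. Of 5 choroid plexus markers only 1 has a row, with at most 0.792 FPKM, and none of 4 haemoglobin genes has one. Why a gene has no row is not stated, so a missing row does not show a low level.

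Most newGene rows were expressed at a low level. Their median count per library was 127 to 146.5, against 875 to 994 for annotated rows. Per unit of length the gap was similar in kind, with a median of 1.32 to 1.48 FPKM for newGene rows and 7.32 to 7.74 FPKM for annotated rows. The number of counts behind 1 FPKM, which grows with the length the authors used, had a median in newGene rows of 0.819 to 0.829 times that in annotated rows of the same library. By mean count, 70 newGene rows had up to 50 counts per library and 198 had over 50 and up to 100. At the other end, 68 rows (9.88%) had over 1000 counts, against 48.3% of annotated rows. At least 1 library was at 0 in 9 newGene rows (1.31%) and in 18 annotated rows (0.133%).

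Only a pair of rows supplied the greater part of newGene counts in the saline cortex. The mean share of all newGene counts over the 3 saline libraries was 35.17% ± 10.7 (SD, n = 3) for newGene_8516 and 27.61% ± 11.3 (SD, n = 3) for newGene_8562. Together they held 62.78% of the newGene counts, so 2 rows pass 50%, while 21 rows were needed for 80% and 99 for 90%. The same 2 rows were among the most abundant of the whole table. By count, newGene_8516 ranked 4, 7 and 3 among all rows in Saline 1, 2 and 3 and 15, 9 and 11 in LPS 1, 2 and 3. For newGene_8562 the ranks were 11, 2 and 10 in saline and 6, 236 and 31 in LPS libraries.

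In saline mice newGene_8516 had 428546, 269998 and 375515 counts, and in LPS mice 135860, 281561 and 159198. The groups overlapped, since LPS 2 lay above Saline 2. Its LPS to saline ratio was -0.94 on the log2 scale (SE 0.375), and the quasi-likelihood test of edgeR gave an adjusted p of 0.711. Counts of newGene_8562 were 198487, 474164 and 212871 in saline and 260524, 20198 and 60058 in LPS libraries. Here LPS 1 lay inside the saline range and LPS 2 and LPS 3 far below it. Its log2 change was -1.44 (SE 1.07, edgeR adjusted p = 0.826).

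The 2 rows tended to be high in different libraries of a group. Saline 2 had the lowest newGene_8516 and the highest newGene_8562 count of the saline group, and LPS 2 the highest newGene_8516 and the lowest newGene_8562 count of the LPS group. Added together, they made up 1.595%, 1.87% and 1.573% of all counts in Saline 1, 2 and 3 and 0.9604%, 0.732% and 0.6062% in LPS 1, 2 and 3. So the sum separated the groups where neither row did. The pair was chosen for its size, and its sum was looked at after the values were seen, so no test is given for it.

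**Figure D1:**
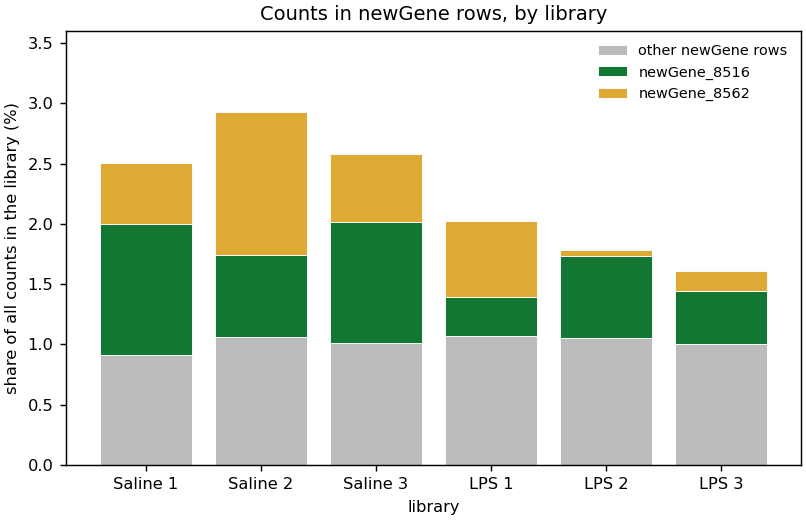
Share of all counts in each of the 6 libraries that lay in newGene rows, in percent, as stacked bars for newGene_8516, newGene_8562 and the other 686 rows. The grey part stays between 0.9112% and 1.066% in all 6 libraries, and the coloured parts make the saline bars taller.

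In sums of counts, the difference in total newGene share between the groups lay in these 2 rows. They were ranked by their share in saline libraries, so taking them out tends to lower the saline side more. The p-values without them are therefore descriptions. All newGene rows together held 2.673% ± 0.226 of the counts in saline and 1.805% ± 0.211 in LPS libraries (SD, n = 3 each), a difference of 0.868 percentage points. The exact two-sided permutation test gave p = 0.10, the smallest that 3 against 3 libraries allow. That the groups do not overlap in this share was known from earlier results of these data, so this p adds no independent support. Without the 2 rows the other 686 held 0.9112%, 1.061% and 1.01% in Saline 1, 2 and 3 and 1.066%, 1.05% and 1.0% in LPS 1, 2 and 3. Their group means were 0.9941% and 1.038%, with the sign turned (exact permutation p = 0.60). Without newGene_8516 alone the difference was 0.429 percentage points (exact permutation p = 0.30), with overlapping groups, and without newGene_8562 alone it was 0.396 points (exact permutation p = 0.10). Counting error alone is far smaller, with 95% Wilson intervals of at most ±0.0052 percentage points around a library's share.

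The length-scaled values of newGene_8516 ordered the libraries differently from its counts. Its FPKM values were 2270, 1426 and 2104 in Saline 1, 2 and 3 and 1414, 2441 and 1357 in LPS 1, 2 and 3, so LPS 2 was the highest library of all. On mean FPKM its log2 difference was -0.15, and on mean CPM (counts scaled to library size with TMM factors) -0.94. For newGene_8562 the FPKM values were 1310, 2819 and 1571 in saline and 1479, 118 and 425 in LPS libraries. Within each group that is the order of its counts, while LPS 1 was above Saline 3 by count and below it by FPKM. As a share of the summed FPKM of a library, all newGene rows held 1.797% ± 0.14 in saline and 1.439% ± 0.182 in LPS libraries (SD, n = 3 each; exact permutation p = 0.10).

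Behind these, the larger newGene rows were a mix of steady and variable ones. Of the 20 rows with the largest saline share, which reach down to 0.3251% of newGene counts, 10 varied by less than 1.3-fold within both groups. Counts of newGene_6857 were 19838, 20689 and 17816 in saline and 20704, 18439 and 17153 in LPS libraries. newGene_19322 had 17981, 16733 and 17292 counts in saline and 17994, 19442 and 18440 in LPS libraries. newGene_17217 was the steadiest by its change, at 112.3 ± 5.57 CPM in saline and 112.7 ± 1.05 CPM in LPS libraries (SD, n = 3 each; log2 0.01, SE 0.0567). Also under 1.3-fold in both groups were newGene_287, with 9048 to 10787 counts in saline and 9448 to 11148 in LPS libraries, and newGene_17846, with 7288 to 8326 and 7355 to 9218. newGene_14789 had 4963 to 6189 and 5396 to 5959 counts, and newGene_19427 3974 to 4434 and 4094 to 4399. In all 4 the groups overlapped.

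Others among the 20 were less even. newGene_7280 had 22404, 43588 and 19832 counts in saline and 58070, 44045 and 36549 in LPS libraries, with Saline 2 inside the LPS range (log2 0.66, SE 0.353, edgeR adjusted p = 0.783). newGene_19316 had 15170, 46717 and 29984 counts in saline and 39953, 42839 and 25425 in LPS libraries, so its saline libraries alone spanned 2.94-fold. newGene_5383 had 9981, 9388 and 6308 counts in saline and 4063, 7630 and 2968 in LPS libraries (log2 -0.85, SE 0.413, edgeR adjusted p = 0.762).

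newGene_13179 was even in saline, with 3915, 4412 and 4004 counts, and had 2052, 4664 and 3373 in LPS libraries. The reverse held for newGene_14048, with 3237, 3139 and 4842 counts in saline and 4660, 4868 and 3659 in LPS libraries, and for newGene_3642, with 3803, 2309 and 4560 against 2879, 2955 and 2087. newGene_13332, the last of the 20, spanned 1.48-fold in saline and 1.46-fold in LPS libraries. In these 4 rows the groups overlapped.

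None of the 20 largest rows was called by edgeR, and the smallest adjusted p among them was 0.522. That row was newGene_1471, at 163, 148 and 148 CPM in saline and 163, 180 and 189 CPM in LPS libraries (log2 0.21, SE 0.0707). Its LPS 1 library lay just above Saline 1. At an unadjusted p under 0.05 in edgeR there were 3 of the 20, newGene_1471, newGene_11150 and newGene_19058. Of all rows, 3.63% had a positive and 3.54% a negative change at that p. The groups did not overlap in 2 of the 20, newGene_1471 with LPS higher and newGene_19058 with LPS lower. That was so in 6.84% of all rows for each direction. For newGene_11150 the level was 308 ± 27.5 CPM with saline and 248 ± 34.3 CPM with LPS, and for newGene_19058 it was 107 ± 4.88 and 97.3 ± 3.34 CPM (SD, n = 3 each).

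Across treatments, edgeR called 4 newGene rows higher in LPS libraries and 0 lower, at an adjusted p under 0.05 over all 14250 rows. These are 0.581% of newGene rows for the higher direction, where 0.0982% of all rows were called higher and 0.189% lower. Beyond the calls, 35 newGene rows had a positive change at an unadjusted p under 0.05 in edgeR and 20 a negative one. That is 5.09% and 2.91% of the newGene rows, against 3.63% and 3.54% of all rows. Every LPS library lay above every saline library in 55 newGene rows (7.99%), against 6.84% of all rows, and below in 39 (5.67%), also against 6.84%. The median log2 change was 0.02 over newGene rows and 0.00 over annotated rows. The changes of newGene rows were spread more widely: their middle 50% ran from -0.14 to 0.20 and that of annotated rows from -0.08 to 0.08.

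newGene_9246 had the smallest p. Its counts were 835, 768 and 772 in saline and 1467, 1532 and 1267 in LPS libraries, and no libraries overlapped. The mean level was 20.4 ± 1.35 CPM with saline and 35.8 ± 1.75 CPM with LPS (SD, n = 3 each), so the row rose by 0.81 on the log2 scale (SE 0.0799) with an edgeR adjusted p of 0.00273. The authors' FPKM of this row went the other way, at 4.27, 4.09 and 3.75 in saline and 3.82, 3.23 and 2.99 in LPS libraries. On log2(FPKM + 1) the change was -0.21, with a limma adjusted p of 0.767. So the call rests on the counts alone, and the FPKM per count of this row differed between libraries.

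newGene_12095 was low in saline mice, with 15, 7 and 19 counts, and had 86, 96 and 80 counts in LPS mice. The mean was 0.356 ± 0.165 CPM with saline and 2.20 ± 0.162 CPM with LPS (SD, n = 3 each), and the row rose by 2.63 on the log2 scale (SE 0.353) with an edgeR adjusted p of 0.0159. FPKM showed the same direction, at 0.0864 to 0.293 in saline and 1.11 to 1.36 in LPS libraries. The edgeR adjusted p was 0.0517 without Saline 1, 0.0650 without LPS 2 and 0.0595 without LPS 3, so the call was lost in each of these fits.

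newGene_9248 and newGene_9259 rose by smaller amounts. Counts of newGene_9248 were 1051, 930 and 1064 in saline and 1593, 1694 and 1349 in LPS libraries (log2 0.57, SE 0.0920, edgeR adjusted p = 0.0478). Counts of newGene_9259 were 491, 510 and 519 in saline and 760, 811 and 720 in LPS libraries (log2 0.56, SE 0.0873, edgeR adjusted p = 0.0408). Neither group overlapped the other in either row. Both calls were lost when any one of the 6 libraries was left out, with edgeR adjusted p of 0.0599 to 0.139 for newGene_9248 and 0.0539 to 0.152 for newGene_9259.

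**Figure D2:**
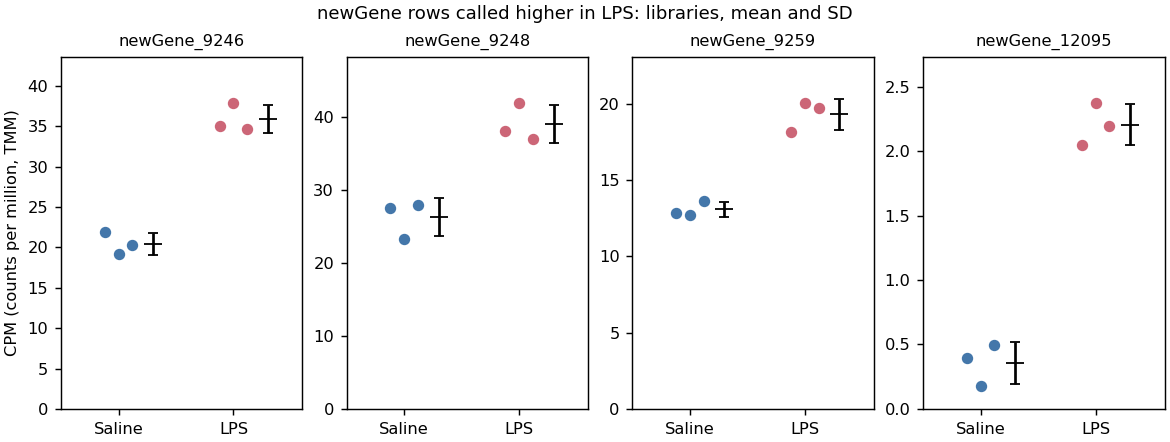
Level in CPM (TMM-scaled) of the 4 newGene rows called higher by edgeR, 1 point per library, with the mean and SD of 3 libraries beside each group. Every LPS point lies above every saline point in each panel, and newGene_12095 sits near 0 in saline libraries.

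Of the 4 called rows, 3 carry numbers close to each other. A run of 13 newGene rows is numbered from 9245 to 9262 with steps of at most 3, where the median step between neighbouring numbers in the table is 19. It is the longest such run, and the labels do not say what the numbers follow, so whether close numbers mean close positions on a chromosome is not known here. Of these 13 rows, 3 were called higher, 7 had a positive change at an unadjusted p under 0.05 in edgeR, and 12 had a positive log2 change. The median change was 0.55. In 9 of them every LPS library lay above every saline library. Of all rows, 0.0982% were called higher and 3.63% had a positive change at an unadjusted p under 0.05 in edgeR. Every LPS library lay above every saline library in 6.84% of all rows. The run was picked out after its values were seen, so its counts have no test.

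Several rows of the run missed the threshold in edgeR, among them newGene_9252, which DESeq2 called. Its counts were 363, 350 and 352 in saline and 475, 562 and 501 in LPS libraries (log2 0.50, SE 0.112, edgeR adjusted p = 0.192). newGene_9254, the most abundant of the run, had 2057, 2038 and 1565 counts in saline and 2840, 2766 and 2086 in LPS libraries (log2 0.41, SE 0.113, edgeR adjusted p = 0.420). newGene_9249 had 30, 17 and 27 counts against 72, 56 and 49 (log2 1.21, SE 0.312, edgeR adjusted p = 0.335). newGene_9255 had 72, 84 and 63 counts against 103, 136 and 125 (log2 0.71, SE 0.215, edgeR adjusted p = 0.446). In these 4 rows the groups did not overlap either. newGene_9262, at the upper end of the run, had 54, 65 and 51 counts in saline and 43, 65 and 17 in LPS libraries (log2 -0.49, SE 0.392), the only negative change of the 13.

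Summed over the run, the level was 143.4, 131.0 and 127.8 CPM in Saline 1, 2 and 3 and 191.4, 202.9 and 187.1 CPM in LPS 1, 2 and 3. Among the other 675 newGene rows, 1 was called. The only other run of 5 or more rows, 8 rows numbered 14048 to 14060, had no row at an unadjusted p under 0.05 in edgeR, and a median log2 change of 0.00. In 2 of its 8 rows every LPS library lay below every saline library, and in 0 above. Of all rows, 6.84% lay below in this way and 6.84% above.

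**Figure D3:**
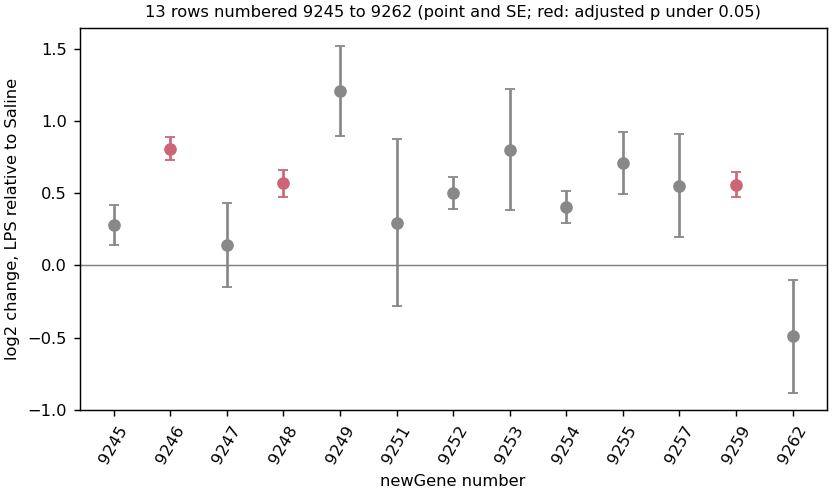
Log2 change of LPS relative to saline, with its SE, for the 13 newGene rows numbered 9245 to 9262. The 3 red points are the rows called by edgeR, and 12 of the 13 points lie above 0.

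Rows with numbers 2 to 10 apart had slightly more alike profiles over the 6 libraries than rows far apart, while direct neighbours differed less from them. The run described above was not left out of these pairs. Pairs of newGene rows whose numbers differ by 2 or 3 had a median Pearson r of 0.211 over the 6 libraries (72 pairs), and those 4 to 10 apart 0.136 (250 pairs). Direct neighbours in number had 0.0552 (57 pairs), and pairs over 100 apart 0.0116 (233713 pairs). All pairs share the same 6 libraries, and these values are a description.

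Among rows that missed the threshold, newGene_885 came nearest. Its counts were 941, 942 and 970 in saline and 1317, 1654 and 1331 in LPS libraries, without overlap (log2 0.56, SE 0.0996, edgeR adjusted p = 0.0752). newGene_10063, with 571, 644 and 528 counts in saline and 809, 727 and 835 in LPS libraries, also lay higher in each LPS library (log2 0.42, SE 0.111). The same held for newGene_13407, at 4.99 ± 0.734 and 7.50 ± 1.04 CPM (SD, n = 3 each). So did newGene_6652, with 29, 52 and 34 counts in saline and 97, 104 and 56 in LPS libraries. None of these 4 rows passed in edgeR with all 6 libraries. newGene_885 was called by DESeq2 (adjusted p = 0.000278) and by edgeR without LPS 1 (adjusted p = 0.0220), its lowest LPS library. Smaller differences of the same kind were seen in newGene_11904 (log2 0.48, SE 0.140) and newGene_11909 (log2 0.23, SE 0.0675).

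In the negative direction 0 rows passed in edgeR or limma-voom, while DESeq2 called 3, newGene_17885, newGene_12382 and newGene_12381. The share of all rows called by DESeq2 is not given here, so whether 3 is many for that method cannot be told. newGene_12382 had 184, 200 and 285 counts in saline and 103, 106 and 111 in LPS libraries (log2 -1.09, SE 0.207, edgeR adjusted p = 0.101). Its neighbour in number newGene_12381 had 196, 167 and 106 counts in saline and 88, 94 and 46 in LPS libraries (log2 -1.08, SE 0.291, edgeR adjusted p = 0.357). newGene_17885 had 973, 967 and 875 counts in saline and 422, 687 and 403 in LPS libraries (log2 -0.93, SE 0.194, edgeR adjusted p = 0.243). In all 3 rows each LPS library lay below each saline library.

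The largest negative value belonged to newGene_11634. Its counts were 79, 93 and 109 in saline and 0, 0 and 14 in LPS libraries, and a count of 0 allows up to 3 counts, or 0.0715 CPM in LPS 1 and 0.0741 CPM in LPS 2. The log2 change was -4.30 with an SE of 0.958, and the edgeR adjusted p was 0.357. limma on log2(FPKM + 1) called it, and edgeR did without LPS 3, the 1 LPS library with counts. Further rows without overlap were newGene_4484 (2.61 ± 0.683 and 1.31 ± 0.102 CPM), newGene_13993 (2.77 ± 0.505 and 1.52 ± 0.167 CPM), newGene_13842 (1.18 ± 0.119 and 0.442 ± 0.302 CPM), newGene_14274 (log2 -0.27), newGene_7872 (log2 -0.17) and newGene_2024 (log2 -0.20; SD, n = 3 each).

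Wide variation between mice of the same group was more frequent in newGene rows than in annotated ones. A row counts as wide here when the highest CPM of a group is over 4 times its lowest, with counts under 3 set to 3. There were 31 such rows within saline (4.51% of newGene rows, against 0.835% of all rows) and 27 within LPS (3.92%, against 0.814% of all rows). With 14 rows wide in both groups, 44 were wide in at least one, or 6.4%, against 1.35% of all rows. Annotated rows stood at 1.09%, with 148 of 13562. Within saline the rows just over 4-fold were newGene_4312 at 4.01 and newGene_10832 at 4.11, and just under were newGene_11740 at 3.94 and newGene_9253 at 3.93. Within LPS they were newGene_18103 at 4.13 and newGene_7782 at 4.61, and newGene_568 at 3.99 and newGene_10832 at 3.93.

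The excess lay in rows with over 100 counts. Among rows with up to 50 counts, 7.14% of newGene and 5.73% of annotated rows were wide. Among rows with a mean of over 50 and up to 100 counts, 3.54% of newGene and 4.08% of annotated rows were wide. Among rows with over 1000 counts the values were 7.35% (5 of 68) and 0.428% (28 of 6547). The share of wide rows was thus lower at higher counts in annotated rows and lay between 3.54% and 8.33% at all levels in newGene rows. Annotated rows with a Gm symbol, which marks predicted mouse gene models, were wide still more often, in 26 of 166 rows (15.7%), and those with a Rik symbol, which marks cDNA clones, in 2 of 194 (1.03%). The share of counts in Gm rows did not separate the groups, at 0.1787% to 0.1963% in saline and 0.1844% to 0.1881% in LPS libraries (exact permutation p = 0.90). For Rik rows it was 0.6052% to 0.6277% and 0.6149% to 0.628% (exact permutation p = 0.30).

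**Figure D4:**
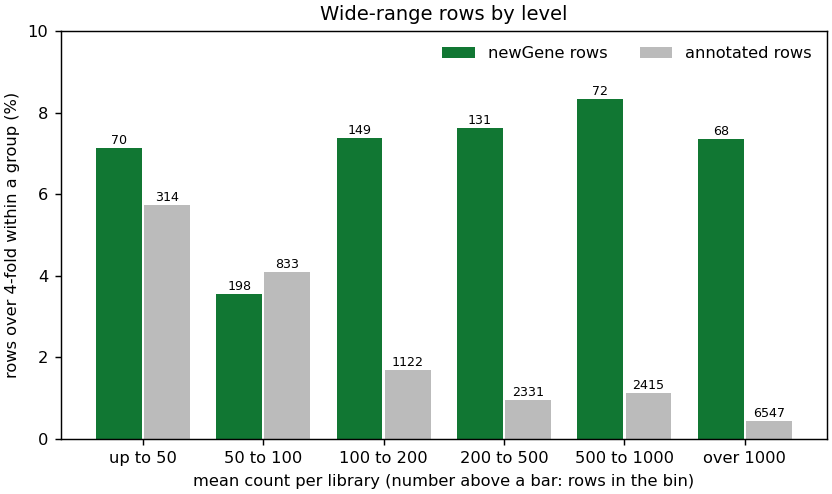
Percentage of newGene and annotated rows whose CPM ranged over 4-fold within the saline or the LPS group, by mean count per library, with the number of rows above each bar. The newGene bars stay between 3.54% and 8.33%, while the annotated bars go from 5.73% down to 0.428%.

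The widest rows were close to absent in some mice and plain in others. newGene_3641 had 0, 797 and 0 counts in Saline 1, 2 and 3 and 788, 998 and 5 counts in LPS 1, 2 and 3. Within saline that is at least 253-fold with the floor of 3 counts per library, and within LPS 180-fold. newGene_16468 followed the same division of mice, with 8, 481 and 9 counts in saline and 470, 312 and 0 in LPS libraries. Saline 2, LPS 1 and LPS 2 thus had both transcripts at high level and the other 3 mice had at most 9 counts of either.

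Other rows divided the mice in other ways. newGene_8379 had 564, 0 and 180 counts in saline and 24, 608 and 171 in LPS libraries, with Saline 2 and LPS 1 low. newGene_16898 had 430, 5 and 317 counts in saline and 9, 0 and 208 in LPS libraries, with 3 mice at up to 9 counts. newGene_6858 had 0, 155 and 94 counts in saline and 0, 0 and 55 in LPS libraries. The low mice were thus not the same in these rows.

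Some wide rows were low in 1 mouse only. newGene_2691 had 1 count in Saline 1 and 104 to 144 counts in the other 5 libraries. newGene_8640 had 0 counts in Saline 3 and 48 to 119 in the others. newGene_3648 had 6 counts in Saline 2 and 84 to 183 in the others. The library that stood alone was a different saline library in each of these 3 rows.

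In newGene_16549 the saline libraries had 304, 14 and 1283 counts and the LPS libraries 1477, 394 and 1110, so Saline 2 was lowest. newGene_16573 had 139, 1053 and 1450 counts in saline and 1180, 38 and 620 in LPS libraries. newGene_12456 had 96, 2039 and 2259 counts in saline and 752, 748 and 1680 in LPS libraries. The higher libraries of these rows were far above the floor of 3 counts. Further rows with a low Saline 1 were newGene_18593, with 16 against 492 and 365 counts in saline, and newGene_3647, with 0 against 28 and 73.

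Within LPS, newGene_11151 spanned 26.3-fold, newGene_18090 19.3-fold and newGene_4463 at least 21.4-fold. Within saline, newGene_5871 spanned 21.8-fold and newGene_4583 20.7-fold. The abundant rows newGene_19317 and newGene_8562 also belong here. newGene_19317 had 382, 6544 and 5918 counts in saline and 4415, 8482 and 1068 in LPS libraries, a range of 16.3-fold in saline and 7.17-fold in LPS. Its neighbour in number newGene_19316 was lowest in Saline 1 too. newGene_8562, described above, spanned 2.28-fold in saline and 12.4-fold in LPS libraries.

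**Figure D5:**
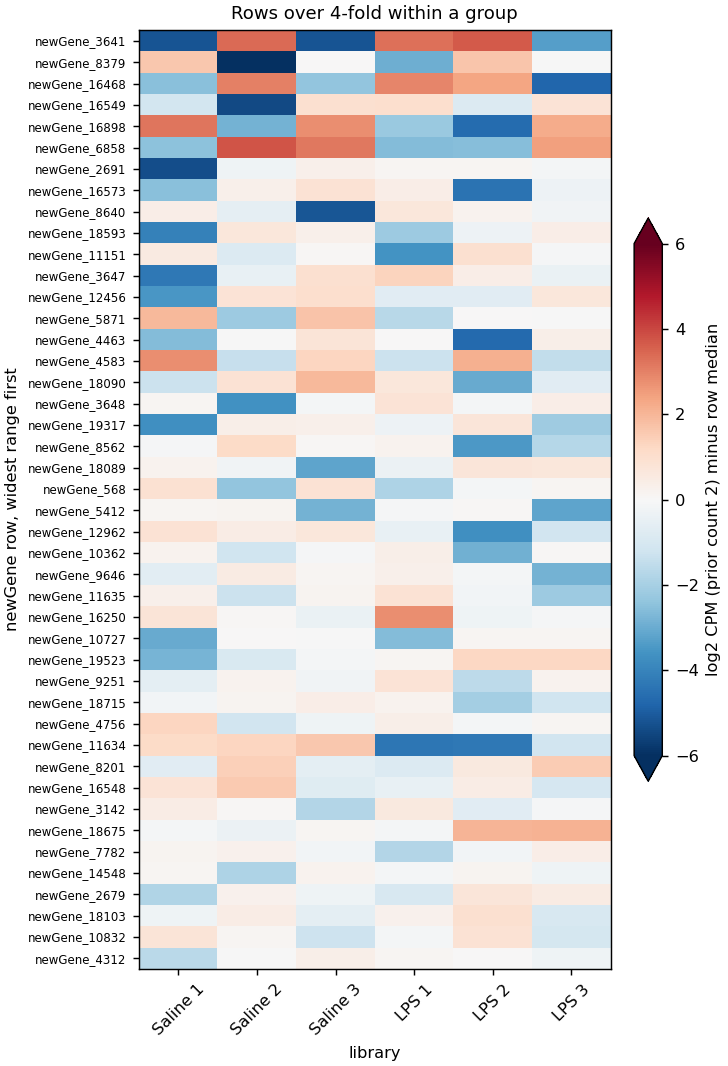
Log2 CPM (prior count 2) minus the row's median in the 6 libraries, for the 44 wide newGene rows, widest first. The blue cells, low libraries, are spread over all 6 columns.

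Of the 44 wide rows, 22 ranged over 10-fold and 10 had a library under 3 counts. The lowest library was Saline 1 in 11 rows, Saline 2 in 8, Saline 3 in 5, LPS 1 in 4, LPS 2 in 9 and LPS 3 in 7. The highest was LPS 2 in 10 rows, Saline 3 and LPS 1 in 9 each, Saline 2 in 7, Saline 1 in 6 and LPS 3 in 3. So each mouse was the extreme one in some rows. Where libraries tied for lowest at 0 counts, the first in the order Saline 1 to LPS 3 was taken. That was Saline 1 for newGene_3641 and newGene_6858, and LPS 1 for newGene_11634. Over all 946 pairs of wide rows the median Pearson r over the 6 libraries was -0.103, and 19 pairs were over 0.9, such as newGene_16573 with newGene_4463 (0.983) and newGene_5871 with newGene_568 (0.976).

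In the treatment comparison with all 6 libraries, edgeR called none of the 44 wide rows. It called newGene_18675 without LPS 1 and newGene_11634 without LPS 3, in each row the LPS library nearest the saline level. These 2 rows had an unadjusted p under 0.05 in edgeR with all 6 libraries. The groups did not overlap in 3 of the 44, newGene_11634, newGene_12962 and newGene_19523. Of all rows, 3.63% had a positive and 3.54% a negative change at an unadjusted p under 0.05 in edgeR. Groups did not overlap in 6.84% of all rows with LPS higher and in 6.84% with LPS lower. newGene_12962 had 1047, 834 and 940 counts in saline and 467, 47 and 247 in LPS libraries (log2 -1.93, edgeR adjusted p = 0.729). newGene_19523 had 78, 308 and 517 counts in saline and 652, 1378 and 1241 in LPS libraries (log2 1.84, edgeR adjusted p = 0.735). They were picked out here for their lack of overlap. In saline libraries the 44 rows held 29.51% of newGene counts, nearly all of it newGene_8562, and the others 1.9%.

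Counts and FPKM departed from each other more often in newGene rows. The classes were not matched by level for this comparison, and newGene rows had lower median counts than annotated rows. Relative to Saline 1, the FPKM per count of a row was over 10% away from its library's median in 16.7% of 3418 newGene row and library pairs and in 10.1% of 67771 annotated ones. In 7 newGene rows (1.02%) the log2 difference between groups changed by over 0.5 between CPM and FPKM, against 41 annotated rows (0.302%). They include newGene_9246 and newGene_8516. In newGene_18673 the counts were 691, 852 and 628 in saline and 952, 880 and 1046 in LPS libraries, a log2 difference of 0.39 on CPM and 1.16 on FPKM. newGene_13050, with 362, 920 and 244 counts in LPS libraries, had -0.59 on CPM and -0.01 on FPKM. The cause was not tested.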

How the data were processed

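RNA was sequenced from the ACC of 6 mice, 3 per group, grouped by the sample titles. The deposited table holds raw counts and FPKM values, both made by the authors, for each row and library. TopHat2 2.1, DESeq and build GRCm38 are named in the submitters' processing notes. Their roles, the assembler behind the newGene rows, the counter, and the row lengths used for FPKM are not stated there or in the labels. Whether strand was kept is not stated, and overlapping transcripts can therefore share reads. The smallest row total was 185 counts, and no low-count filter is stated.

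All 14250 rows were fitted together with edgeR 4.0.16 (quasi-likelihood, robust option, TMM factors, treatment as the only term) in R 4.3.3, and p-values were adjusted over all of them by the Benjamini-Hochberg method. filterByExpr removed 0 rows. The SE of a log2 change is its size divided by the square root of edgeR's F statistic. Ranges within a group used CPM with counts under 3 set to 3. Shares were compared by exact two-sided permutation tests. Intervals and floors cover counting error only. The edgeR fit and the 4-fold range rule were run on simulated data with changes planted in known rows. Those data had the same dispersion in every row, so they do not carry the spread of the wide rows. Shares, permutation tests and number runs were not simulated.

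The members were chosen by name, and all lists and rules were chosen with earlier results of these data known. Rows named are the 20 with the largest saline share, the called rows, up to 10 more per direction with the smallest p and no overlap, the 20 with the widest range, and those next to 4-fold. Others were chosen after their values were seen. Same-numbered libraries did not deviate together (Pearson r of -0.0266, 0.0252 and 0.0421), so numbers were not used as pairs. No libraries were near-duplicates (chi-square per degree of freedom at least 32.13). Alternatives used DESeq2 1.42.0, limma-voom and limma 3.58.1 on log2(FPKM + 1) for rows with a mean of at least 0.5. The markers of 1 further cell type are not reported here.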

Additional observations from a re-analysis of the deposited data

How the results depend on the processing

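The number of newGene rows called higher stayed at 4, the same rows, with RLE size factors, TMM factors without newGene rows, no filter (the same fit, since 0 rows are filtered) and a mean of at least 50 counts, and, added after seeing the data, without wide rows. It was 6 with DESeq2, 5 at a threshold of 0.1, 2 with limma-voom or without the robust option, 1 on FPKM, 1 without the run of 13 close numbers (added after seeing the data) and 1 with the replicate number as a block (replicate block), which does not pair the mice. newGene rows lower numbered 0 in edgeR, 3 with DESeq2, 0 with limma-voom and 1 on FPKM. For these alternatives the share of all rows called is not given, so their counts have no background beside them. Leaving out 1 library gave 1 to 4 rows higher and 0 to 2 lower (1 without LPS 1, 2 without LPS 2 or LPS 3; 1 higher without Saline 1, LPS 2 or LPS 3, 2 without Saline 2), newGene_9246 being called in all 6 such fits. Its log2 change was -0.21 on FPKM. The rows called with 1 library left out were not always those of the main fit. Those higher included newGene_18675 and newGene_885 without LPS 1, and newGene_12548 without Saline 3. Those lower were newGene_18700 without LPS 1, newGene_17885 and newGene_13050 without LPS 2, and newGene_11634 and newGene_1315 without LPS 3. For each of these rows outside the main fit's calls, the library left out was its group's nearest to the other group by CPM. Leaving it out widens the gap, so these calls are descriptions and no support for a treatment difference. The saline minus LPS difference in newGene share, 0.868 percentage points, was 0.429 without the largest row, 0.394 without wide rows, 0.358 on FPKM, -0.00396 without the 10 largest rows and 0.740 to 0.979 with 1 library left out. Added after seeing the data, it was 0.396 without newGene_8562 and -0.0444 without newGene_8516 and newGene_8562. The largest rows were ranked by saline share, so taking them out tends to lower the saline side more. With any 1 saline library left out, 2 rows held over 50% of saline newGene counts. Wide rows in LPS numbered 43 at over 3-fold. With 1 library left out, which leaves 2 and so lowers the count by construction, they were 15 to 22 in saline and 14 to 16 in LPS. Apart from that and from changed thresholds or rows removed, the cause was not tested. With 3 mice per group and medians of 127 to 146.5 counts per library, small changes in most newGene rows could be missed, and the mice's sex, litter and order of collection are not in the labels.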
